A study of Rattus norvegicus with 6 samples.

Results

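Nell1 and Nell2 are a pair of related genes that encode secreted glycoproteins. The sites described here come first from the authors' deposited annotated table of 32674 nuclear sites. They are the CpG cytosines whose nearest annotated transcript start was that of Nell1 (4 sites) or Nell2 (5 sites). To these were added the 8 sites with 10 reads or more in all 6 libraries within a 60-kb interval of chromosome 1. That interval holds Nell1 sites flagged as intronic, and its listed positions run from 100100213 to 100158019 (build rn4). Because 3 sites belong to both sets, 14 different sites resulted, among 424646 nuclear sites with 10 reads or more. The genes and the interval were chosen by the measured methylation difference between injured and sham ganglia in these libraries, so that difference is given for them as a description. Where sites are counted as called in a fit over a whole table, the count stands beside the share called there and nothing is read from it.

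NELL proteins carry a thrombospondin-like N-terminal part, von Willebrand factor C domains and EGF-like repeats, and act as ligands outside the cell. NELL1 is known mainly from bone, where it promotes osteoblast differentiation. NELL2 is made mainly by neurons and guides commissural axons through the receptor Robo3. In a mammalian gene, CpGs around an active or potentially active start are usually unmethylated, while CpGs within the transcribed body are usually methylated.

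The tissue was the dorsal root ganglion (DRG), where sensory neuron cell bodies sit among satellite glia and Schwann cells, and it came from adult male Sprague-Dawley rats, 8 to 9 weeks old per the labels' protocols. In the SNL group (spinal nerve ligation, a surgical model of neuropathic pain) the L5 and L6 spinal nerves of the left side had been tied off, and in the Sham group the nerves on the opposite side had been operated on without a ligature. Each group has 3 libraries, taken 3 weeks after surgery, and the labels do not say which libraries came from separate animals, so spreads and p-values describe these libraries and may be technical in part. Reduced representation bisulfite sequencing (RRBS) reads fragments that begin at the MspI recognition sequence CCGG, and a methylation level is the percent of reads that kept a C at the CpG. The whole ganglion was measured, so a shift in the mix of cells and a change of methylation within a cell type cannot be told apart.

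Coverage summed over the nuclear sites was 27131679 to 34226084 per library, where a read over several sites counts at each of them. Median coverage was 211.5 reads at the annotated sites and 27 reads at the sites with 10 reads or more, and libraries of a group had a median SD of 1.89 and 4.17 percentage points at these sites. Over all annotated sites the SNL libraries averaged 67.3% ± 0.789 and the Sham libraries 68.2% ± 0.433 (SD, n = 3), and the median site differed by -0.55 points.

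The start of the Nell1 transcript NM_031069 lay at position 99805920 on the plus strand of chromosome 1, and that of the Nell2 transcript NM_031070 at position 134080105 on the minus strand of chromosome 7 (rn4), both computed from the deposited distances. The RefSeq promoter table, of the assembly GRCr8, holds Nell1. Its 250 bases before the start (GRCr8 chr1:108845212-108845461, plus strand) are shown with every CpG in capitals. They are shown because the sites just downstream of the rn4 start stood near the floor of the scale. Whether the GRCr8 start and the rn4 start are the same was not checked.
Nell1 upstream: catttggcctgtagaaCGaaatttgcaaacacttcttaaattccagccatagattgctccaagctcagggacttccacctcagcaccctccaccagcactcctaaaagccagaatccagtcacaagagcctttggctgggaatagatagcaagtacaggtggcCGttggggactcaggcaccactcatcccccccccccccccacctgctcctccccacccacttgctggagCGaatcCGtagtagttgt
The stretch holds 4 CpGs (the letters CG, which read the same on both strands), where the median over 33469 promoters of the same length was 5 and 62.6% held 4 or more. The letters CCGG (the same on both strands) were not in it, and 46.2% of the promoters held them.

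At their starts both genes were almost free of methylation in these ganglia. Within 1 kb of the Nell1 start, 12 sites were covered by 10 reads or more in all libraries, all of them 23 to 234 bases downstream, and they averaged 1.95%, 3.89% and 3.95% in SNL 1 to 3 and 2.76%, 3.3% and 2.13% in Sham 1 to 3. The 12 sites of the Nell2 start, 542 to 677 bases downstream, averaged 1.45%, 3.73% and 2.62% in SNL and 2.84%, 2.34% and 1.6% in Sham. Over the sites of the Nell2 start with 20 reads or more, the SNL mean was higher by 2.11 points, against 0.34 points over all 12. The groups overlapped at both starts, and at 0 of the 24 sites were the groups separated. Across all annotated promoter sites the mean in Sham was 15.6% ± 0.148 (SD, n = 3) and the median site stood at 2.78%, so both starts lay near the typical promoter site. Depth was low here, with 15 to 48 reads per site and library at the Nell1 start and 11 to 50 at the Nell2 start. Several neighbouring sites of each start had the same coverage in every library, so they can lie on the same reads and are not independent measurements.

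Among these 24 sites, position 99805974 of Nell1, 54 bases past the start, had the highest SNL mean. Its means were 18.7% ± 11.2 for the SNL and 3.92% ± 6.79 for the Sham libraries (SD, n = 3) with 15 to 18 reads, and the groups overlapped. The adjacent position 99805973 stood at 8.83% in both groups, with 20 to 48 reads. The files list every position on the same strand, and the bases at these adjacent positions were not looked up. Whether they are the opposite strands of the same CpG was therefore not determined, so sites counted here may not all be different CpGs. Position 99805974 differed by 14.8 points with an SE of 7.56 points.

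Past the start, both genes were highly methylated. The body of each gene is taken here from 1 kb past the start to the farthest intron-flagged site whose nearest start was that gene's. That site lay 324.7 kb downstream in Nell1 and 245.3 kb downstream in Nell2, which need not be the end of the gene. The 23 body sites of Nell1 averaged 82% ± 3.64 in Sham and 81.2% ± 1.63 after SNL, and the 17 body sites of Nell2 averaged 85.3% ± 2.53 and 81.1% ± 1.6 (SD, n = 3). In each of the 6 libraries the body mean of either gene was at least 78.1% and its start mean at most 3.95%. The mean over all annotated intronic sites was 67.7% in Sham, with a median site of 82.4%, near the median body site of Nell1 (86.1%) and of Nell2 (85.5%).

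**Figure D1:**
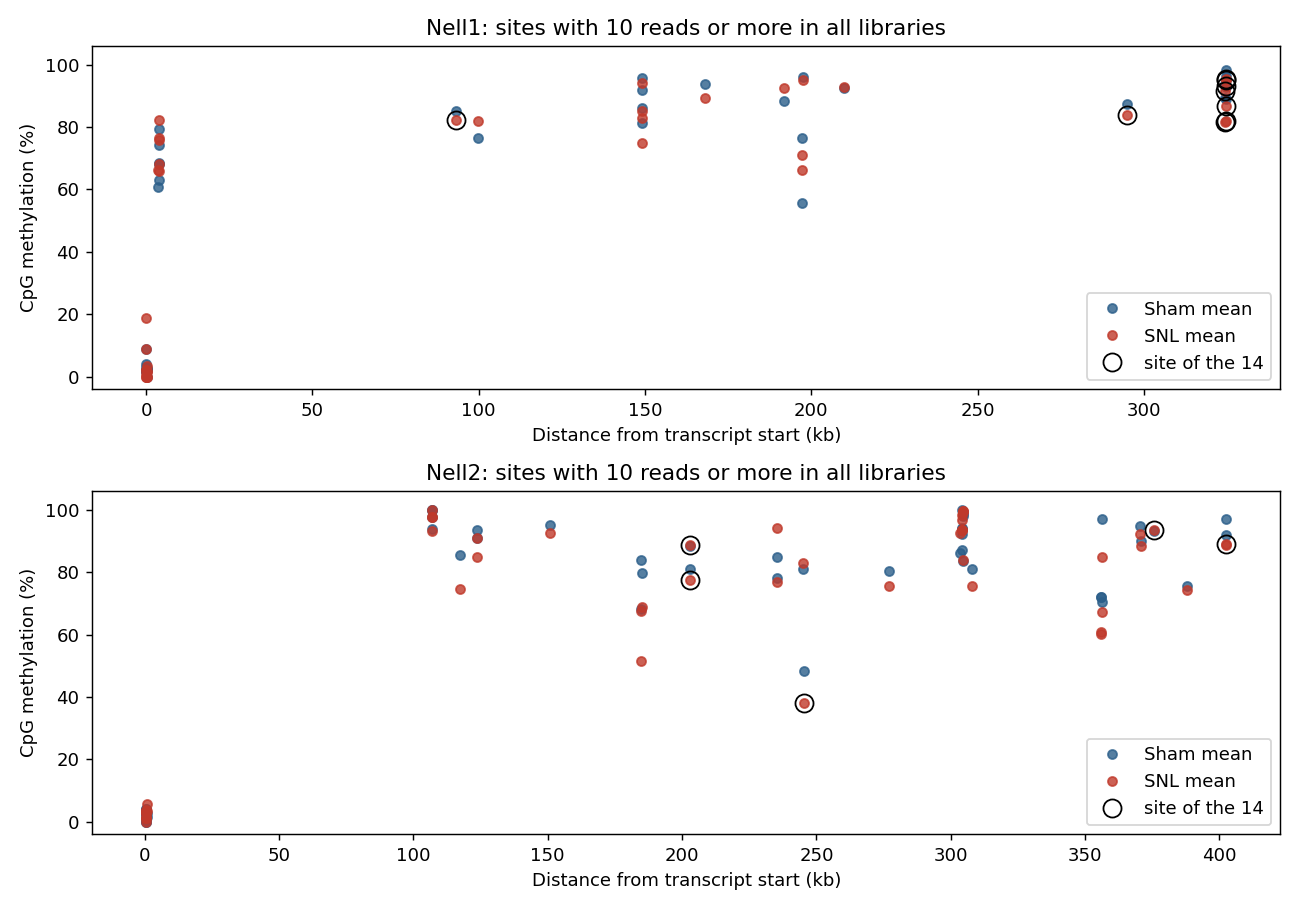
Methylation (percent, mean of 3 libraries per group) at every site with 10 reads or more in all libraries against the distance from the transcript start in kb, for Nell1 (top) and Nell2 (bottom), with Sham in blue, SNL in red and a ring around the SNL mean of each of the 14 sites. The 12 sites at each start lie near 0%, while most sites beyond 1 kb lie above 60%.

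All 9 annotated sites lay far from the starts, outside CpG islands and shores. The 4 Nell1 sites carried the intron flag and were 93.1 to 324.7 kb downstream of the start. Of the 5 Nell2 sites, 3 carried the intron flag, at 203 to 245.3 kb, and 2 lay outside exons and introns, 375.7 and 402.6 kb downstream. Of the 9 sites, 8 had a Sham mean between 81.2% and 93.1%. The exception was the Nell2 site at 245.3 kb, with a Sham mean of 48.2%.

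**Figure D2:**
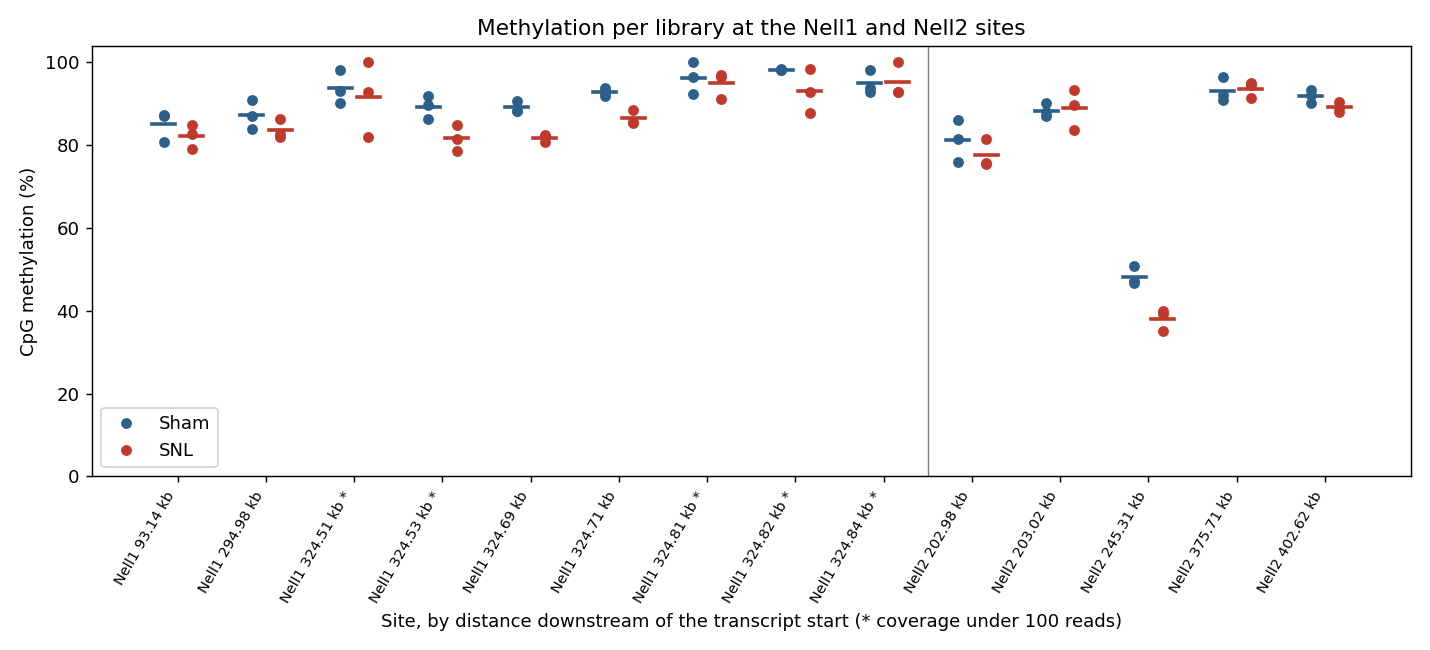
Methylation (percent) per library at the 14 sites, named by gene and by kb downstream of the transcript start, with Sham in blue and SNL in red, 3 points per group, a bar at each group mean and an asterisk where coverage was under 100 reads in a library. Sites lie between 75% and 100% in every library except the Nell2 site at 245.31 kb, which lies between 35.2% and 50.8%.

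The deepest sites of the set were a pair of Nell1 CpGs 12 bases apart in an intron, read 956 to 1289 times per library, deeper than 97% of annotated sites. At position 100130614 of chromosome 1, 324.7 kb past the start, methylation was 82.3%, 82.5% and 80.7% in SNL 1 to 3 and 90.8%, 88.3% and 88.3% in Sham 1 to 3. At position 100130626 it was 88.6%, 85.7% and 85.4% in SNL and 93.9%, 92.6% and 91.9% in Sham. At both positions every SNL library stood below every Sham library.

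The group means of this pair were 81.8% ± 0.978 against 89.1% ± 1.44 and 86.6% ± 1.77 against 92.8% ± 1.05 (SD, n = 3). The difference was -7.3 points ± 1.01 (SE) at the first position and -6.22 points ± 1.19 (SE) at the second. At the first position the 95% Wilson interval of each SNL library, which covers counting error only, ended at 84.5% or below, and that of each Sham library began at 86.1% or above. At the second, the interval of SNL 1 reached 90.4% and that of Sham 3 began at 90%, so these overlapped. Coverage at both positions differed by at most 6 reads in any library, and CpGs so close can lie on the same reads, so the pair is not 2 independent measurements. Of all annotated sites, 3.8% had a difference as low as the first position or lower, and 5.75% as low as the second.

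The Nell2 site with intermediate methylation showed the largest difference among the 9. At position 133834799 of chromosome 7, in an intron 245.3 kb past the start, methylation was 39.9%, 39.1% and 35.2% in SNL 1 to 3 and 46.6%, 47.1% and 50.8% in Sham 1 to 3, at 414 to 580 reads. The SNL libraries again all stood below the Sham libraries. The means were 38.1% ± 2.53 and 48.2% ± 2.31 (SD, n = 3), a difference of -10.1 points ± 1.98 (SE), and 1.39% of annotated sites had a difference as low or lower. The Wilson intervals of single libraries overlapped between the groups, since that of SNL 1 reached 44.5% and that of Sham 1 began at 41.9%.

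**Figure D3:**
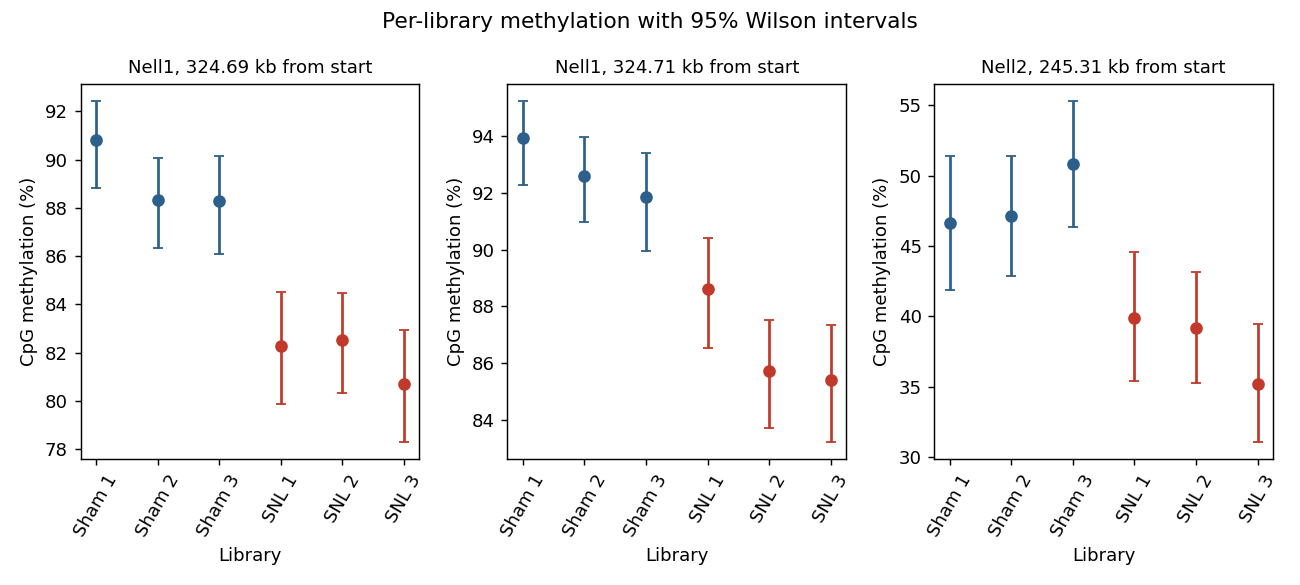
Methylation (percent) in each library at the pair of deep Nell1 CpGs and at the Nell2 site of intermediate methylation, with 95% Wilson intervals for counting error as bars, Sham in blue and SNL in red. Each panel has its own axis, which does not start at 0. In each panel the 3 SNL points lie below the 3 Sham points.

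The remaining 6 annotated sites did not separate the groups. At position 99899064 of Nell1, 93.1 kb past the start, methylation was 85%, 79.1% and 82.8% in SNL and 80.8%, 87% and 87.2% in Sham. At position 100100901, 295 kb past the start, it was 82.8%, 82.1% and 86.4% in SNL and 87.2%, 83.9% and 90.9% in Sham. Both Nell1 sites had lower SNL means, by 2.74 and 3.57 points, and at each the highest SNL library stood above the lowest Sham library.

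Nell2 position 133877121 stood at 81.5%, 75.4% and 75.8% in SNL and 81.5%, 75.9% and 86.1% in Sham. Its neighbour 34 bases away, position 133877087, stood at 93.3%, 89.7% and 83.6% in SNL and 87%, 90.1% and 88.1% in Sham. The pair, read 150 to 203 times per library, differed by -3.61 and 0.5 points, so these neighbouring CpGs had mean differences of opposite sign, with SE of 3.55 and 2.97 points. Downstream of the flagged introns, position 133704398 stood at 94.9%, 94.5% and 91.5% in SNL and 96.4%, 92.2% and 90.8% in Sham. Position 133677482 stood at 90.4%, 88.9% and 88.1% in SNL and 92.1%, 93.4% and 90.3% in Sham. There SNL 1, at 90.4%, lay just above Sham 3, at 90.3%, and the other SNL libraries lay below all of Sham.

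Averaged within each library, the 4 Nell1 sites stood at 84.7%, 82.4% and 83.8% in SNL and 88.2%, 88% and 89.6% in Sham, a difference of -4.96 points. The 5 Nell2 sites stood at 80%, 77.5% and 74.8% in SNL and 80.7%, 79.7% and 81.2% in Sham, a difference of -3.1 points, with overlap between the groups. The Nell2 value rested on few sites and libraries, being -1.78 points without SNL 3, -5.74 points when weighted by reads and -10.1 points over sites with 200 reads or more, where the site at 245.3 kb alone remained. The SNL mean was lower at 7 of the 9 sites, where 61.3% of all annotated sites had a lower mean after SNL.

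**Figure D4:**
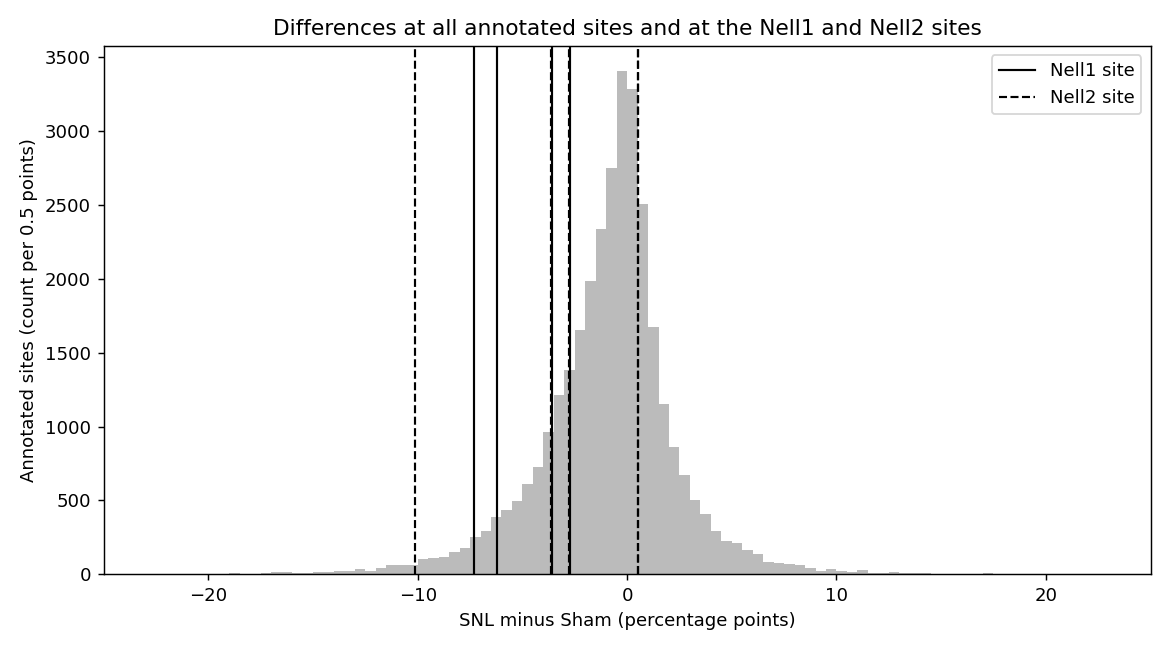
Histogram of the difference in methylation, SNL minus Sham in percentage points, over the annotated sites, with solid lines at the 4 Nell1 sites and dashed lines at the 5 Nell2 sites; the axis runs from -25 to 25 points and leaves out 23 sites. The lines reach from -10.1 to 0.52 points, and the bulk of the sites lies near the median of -0.55.

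In the logistic fit over the whole annotated table, with Benjamini-Hochberg adjustment at 0.05, 3 of the 9 sites were called, the deep Nell1 pair and the Nell2 site at 245.3 kb, all lower after SNL. Among all annotated sites 415 of 32674 were called (1.27%), 365 of them lower (1.12%) and 50 higher (0.153%). The groups did not overlap, with SNL below Sham, at the same 3 of 9 sites, against 13.2% of annotated sites, and 0 of the 9 had SNL above Sham, against 4.64%. These counts come from the contrast that chose the genes. The Nell2 site was not called without SNL 2, SNL 3, Sham 1, Sham 2 or Sham 3, with library offsets or with the replicate number as a block, while the Nell1 pair was called in each of these fits. With limma on logit values or an unmoderated F test 0 of the 9 were called.

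Around the deep pair, the chromosome 1 interval held 5 further sites, all under 100 reads. It held 33 listed positions in any library, and 25 fell under the minimum of 10 reads. The shallowest site kept had 29 reads in its lowest library, and the deepest one left out, position 100100654, had 4 reads there. Of the 8 sites kept, 7 lay within 324 bases of each other and the other one, position 100100901, lay 29.5 kb before them.

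Position 100130450, 164 bases before the deep pair, was the only one of the 5 at which the groups were separated. It stood at 78.7%, 81.4% and 84.9% in SNL and 91.9%, 89.7% and 86.4% in Sham, at 29 to 70 reads. The mean difference, -7.67 points ± 2.4 (SE), was close in size to those of the deep pair. Position 100130434, only 16 bases away and read 29 to 70 times, stood at 82%, 92.9% and 100% in SNL and 90.3%, 93.1% and 98.3% in Sham, and here the SNL libraries spanned the whole range of the Sham libraries.

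After the deep pair came 3 sites at 54 to 68 reads. Position 100130741 stood at 87.7%, 93% and 98.5% in SNL and 98.2%, 98.5% and 98.1% in Sham. Its Sham libraries were nearly alike (SD 0.178 points) and SNL 3 reached their level, so the lower SNL mean came from SNL 1 and SNL 2. The positions 100130735 and 100130758 differed by -1.36 and 0.34 points, with SE of 2.87 and 2.84 points. Methylation thus differed between the groups by 6 to 8 points at 3 of the 7 clustered sites, with no overlap, and by -5.21 to 0.34 points, with overlap, at the other sites of the cluster. Coverage was the same in every library at positions 100130434 and 100130450, and likewise at the 3 sites after the deep pair. Such sites can lie on the same reads, so the 7 are not independent measurements.

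Averaged over the 8 interval sites, methylation was 85.8%, 88.4% and 91.6% in SNL and 92.7%, 91.6% and 94% in Sham. The difference was -4.16 points, with SNL 3 just above Sham 2, and it was -2.75 points without SNL 1. With reads summed over the 1-kb window from 100130000 to 100130999, which holds the 7 clustered sites, methylation was 85.6%, 84.9% and 84.7% in SNL and 92.6%, 90.8% and 90.8% in Sham, a value set mainly by the deep pair. In the fit over all 424646 sites with 10 reads or more, 0 of the 8 interval sites were called and 0% of all sites, while 12464 sites of the table had an unadjusted p under 0.05. When the sites with all reads methylated or all unmethylated were left out of that fit, an alternative added after the data were seen, 2 of the 8 were called, again the deep pair, and 1717 of 411318 sites in all (0.417%). Limma and the unmoderated F test called 0. The summed window was called, lower after SNL, as were 0.48% of 64004 windows in either direction, and 9.71% of windows had SNL below Sham without overlap. The groups did not overlap, with SNL below Sham, at 3 of the 8 sites, against 6.62% of sites with 10 reads or more. Depth is unlike here, since the 3 include the deep pair and median coverage over those sites was 27 reads. Among annotated sites, all with 100 reads or more, the share was 13.2%. At 0 of the 8 was SNL above Sham, against 3.59% of sites with 10 reads or more, and the SNL mean was lower at 7 of the 8, against 53.7% of them.

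Read depth over the interval was compared separately. Depth was part of the rule, since a site needed 10 reads or more in all libraries, and only sites that met this minimum are compared. A difference in depth between the groups was not used. The interval sites took 79.2, 87.9 and 90.6 per 1000000 of summed nuclear coverage in SNL 1 to 3, and 74.5, 88.8 and 84.9 in Sham 1 to 3. A read counts here once at each site it covers. The means were 85.9 ± 5.96 and 82.7 ± 7.4 (SD, n = 3), a ratio of 1.04. The groups overlapped, and an exact two-sided permutation test over 20 arrangements gave p = 0.6, where 0.1 is the smallest p that 3 libraries against 3 can give. The ratio was 0.989 without Sham 1.

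The bodies also held sites outside the 14, read 11 to 123 times in Nell1 and 14 to 101 times in Nell2. Of the 17 such Nell1 sites, 8 had a lower and 9 a higher mean after SNL. The groups did not overlap at 1 (5.88%), with SNL below Sham. Among all sites with 10 reads or more, 53.7% had a lower mean, and 6.62% had SNL below Sham without overlap. Over all 23 Nell1 body sites, 6 of the 14 included, the difference of the body means was -0.766 points. It was between -2.74 points (without Sham 1) and 0.838 points (without Sham 2), was 0.136 points without SNL 2, and was -4.86 points when weighted by reads, where the deep pair dominates. It was also -1.46 points without SNL 3 and -0.396 points without Sham 3. A group of 6 sites 3.6 to 3.9 kb past the Nell1 start had Sham means of 60.7% to 79.4%, at 11 to 99 reads. These lay under the Sham mean of the Nell1 body (82%). More distant sites were not all higher, since the site 197.2 kb past the start had a Sham mean of 55.8%. The deepest site just under the 100-read minimum of the annotated table, 168.2 kb past the Nell1 start, averaged 89.1% ± 1.92 in the SNL and 93.9% ± 3.59 in the Sham libraries (SD, n = 3).

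In Nell2, 11 of the 14 body sites outside the set had a lower and 3 a higher mean after SNL. The mean was lower at 53.7% of all sites with 10 reads or more. Over all 17 body sites, 3 members included, the means were 81.5%, 82.4% and 79.3% in SNL and 82.4%, 86.5% and 87.1% in Sham, a difference of -4.25 points (-7.39 points when weighted by reads) with SNL 2 at 82.42% and Sham 1 at 82.44%. At 4 of the 17 sites the groups did not overlap, with SNL below Sham, and at 0 with SNL above, against 6.62% and 3.59% of all sites with 10 reads or more. The site at 245.3 kb is among them, and it belongs to the set chosen with this contrast. The others were 3 sites within 160 bases, 184.8 to 184.9 kb past the start, which were looked at after their values were seen.

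Position 133895333 of this Nell2 cluster stood at 47.8%, 52.9% and 53.5% in SNL and 64.4%, 66.3% and 73.9% in Sham, at 68 to 101 reads. Position 133895342 stood at 64.4%, 70.1% and 68.6% in SNL and 84.2%, 84.8% and 82.8% in Sham, at 67 to 101 reads. Coverage at these neighbouring positions was nearly the same in each library, so they can lie on the same reads and are not independent measurements. With differences of -16.8 and -16.2 points, both had a wider gap between the groups than any of the 14 sites, and neither was called in the fit over sites with 10 reads or more; the first-named had SNL libraries up to 53.5% and Sham libraries from 64.4%. The last of these sites, position 133895182 with 15 to 33 reads, stood at 64.5%, 69.7% and 72.4% in SNL and 80%, 83.3% and 75.9% in Sham.

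Annotated sites near the genes but nearest to another start numbered 13 near Nell1 and 10 near Nell2, within spans reaching 970.3 kb past the Nell1 start and 507.9 kb past the Nell2 start that were set after the data were seen. The groups did not overlap, with SNL below Sham, at 2 of the 13 and 2 of the 10, and at 0 with SNL above, against 13.2% and 4.64% of annotated sites. Position 99766613, in an intron of Slc6a5 and upstream of the Nell1 start, stood at 78.4%, 80.7% and 82.1% in SNL and 84.4%, 91.7% and 88.8% in Sham, at 173 to 218 reads. Position 100193854, an intronic site 387.9 kb past the Nell1 start and read 940 to 1432 times, stood at 80.1%, 79.5% and 77.1% in SNL and 83.8%, 82.7% and 81.1% in Sham. The groups did not overlap there, the difference was -3.61 points, and neither of these sites was called. A pair of Tmem117 intron sites about 508 kb past the Nell2 start, positions 133572225 and 133572237, differed by -11.6 and -9.82 points with no overlap at 131 to 171 reads and were not called either.

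Of the 9 neighbours of Nell1 on chromosome 1 that were listed, 7 had annotated sites, 31 in all. Of these sites 0 were called lower or higher, where 1.27% of all annotated sites were called. The groups did not overlap at 3 with SNL below Sham (9.68%) and at 2 with SNL above (6.45%). Over all annotated sites these shares were 13.2% and 4.64%. Slc6a5, which encodes the glycine transporter of inhibitory nerve endings and lies upstream of Nell1, averaged 33.7% ± 1.62 after SNL and 33.2% ± 1.17 in Sham over 11 sites, reads summed (SD, n = 3). Nav2 averaged 84.9% ± 0.253 and 85.5% ± 1.75 over 7 sites. Dbx1, a homeobox gene of the developing spinal cord, averaged 5.1% ± 0.338 and 3.88% ± 1.15 over 3 sites. Of the 6 listed neighbours of Nell2, 2 had annotated sites, 21 in all, with 0 called, against the same 1.27%. The groups did not overlap at 4 with SNL below Sham (19%) and at 2 with SNL above (9.52%), against the same 13.2% and 4.64%. Irak4, a kinase of Toll-like receptor signalling, averaged 80.6% ± 1.37 and 80.6% ± 1.75 over 12 sites, and Tmem117 averaged 68.2% ± 2 and 66.9% ± 0.931 over 9 sites.

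The partners and relatives of the NELL proteins comprised receptors, kinases of the protein kinase C family that bind NELL proteins, thrombospondins and the osteoblast factors Runx2 and Sp7, 20 genes in all. Annotated sites were present for 12 of them, 121 in all, and 0 were called in either direction, against 1.27% of all annotated sites. The groups did not overlap at 18 sites with SNL below Sham and at 1 with SNL above, which is 14.9% and 0.826% of the 121, against 13.2% and 4.64% of all annotated sites. The median difference was -1.28 points, against -0.55 over all annotated sites. Cntnap4, a neuronal adhesion protein described as a NELL1 receptor, averaged 78.6% ± 0.539 after SNL and 80.6% ± 1.58 in Sham over 36 sites. Prkce, a protein kinase C, averaged 85.3% ± 0.575 and 85.8% ± 0.866 over 20 sites. Robo1, a Slit receptor of the family of Robo3, averaged 78.2% ± 1.28 and 79.1% ± 0.641 over 18 sites. Robo3 itself was on the list, but no annotated site was assigned to it.

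Over the 6 libraries, the genes whose summed methylation followed that of a NELL gene most closely were found among 3963 genes with 3 annotated sites or more. For Nell1 they were Upk3bl1 (Pearson r = 0.998), Rab21 (r = 0.998) and Ddi1 (r = 0.995), whose differences were -3.89, -8.23 and -8.1 points against -6.05 points for Nell1. For Nell2 they were Cntnap5c (r = 0.994), Mir6322 (r = 0.993) and Mgat5b (r = 0.992), with -1.88, -2.81 and -1.47 points against -5.74 points for Nell2. The libraries share depth and the group split, with all SNL values below all Sham values of Nell1, so these r describe the libraries only.

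Annotated sites near marker genes of ganglion cell types are given beside the NELL sites, since the mix of cells was not measured. Of 31 sites near neuronal markers 1 was called lower, at -40.8 kb from the Nefl start. Of 22 near Schwann cell and satellite glia markers 1 was called lower, at -46.5 kb from the Egr2 start. Both lay upstream and carried no promoter or intron flag. Of 9 near macrophage and 22 near fibroblast and vessel markers 0 were called, where 1.12% of all annotated sites were called lower. The median differences were -1.08, -0.18, -0.13 and -0.43 points in that order. The part of the cell mix in the NELL differences was not tested.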

How the data were processed

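Per the submitters' processing notes, Bismark 0.18.1 with Bowtie2 and methylKit 1.3.3 were used on rn4, although a protocol among the labels names an assembly of the human genome. Per the file headers, the deposited library files give for each site the coverage, a count of reads, and the percent of those reads showing C or T. The authors' deposited annotated table gives percent methylation, p-values (not used here), 0 or 1 flags and signed distances (treated as score). Mitochondrial sites were left out. RefSeq accessions gave symbols for 7622 of 8123 transcripts (GRCr8 gene table, names only).

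Methylated reads were recovered as coverage times percent, and each site was fitted with a logistic regression on group. Overdispersion (4 residual degrees of freedom) was moderated over all sites of a table with squeezeVar of limma 3.58.1 (R 4.3.3), with a floor of 1, followed by a two-sided F test and Benjamini-Hochberg adjustment over the table. Sites whose reads were all C or all T in every library have no residual spread and weaken this moderation. Leaving them out was tried after the data were seen, and it raised the calls from 415 to 464 among annotated sites and from 0 to 1717 among sites with 10 reads or more. The test as laid out, with those sites kept, is the one reported. Windows needed 3 sites or more. The fit was tried on simulated reads with the coverage and levels of the annotated sites. The larger set of sites with 10 reads or more and the windows were not simulated. Levels are means over sites with equal weight, and differences are SNL minus Sham in percentage points. Other tests, coverage minimums, weights and libraries left out were tried. Every annotated site of both genes and every interval site is given; from the lists, the genes with the most sites are named. The members and lists were chosen with earlier results of these data known. Python 3.11.15, numpy 2.4.6, pandas 2.3.3, scipy 1.17.1 and matplotlib 3.10.9 were used.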

Additional observations from a re-analysis of the deposited data

How the results depend on the processing

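Differences and calls were recomputed without each library, with other coverage minimums and weights and with other tests. The difference over the Nell1 sites was -6.05 points when weighted by reads, and that over the Nell2 sites -5.74 points when weighted by reads and -10.1 points at 200 reads or more. Without 1 library in turn they lay between -5.48 and -4.33 points for Nell1, -4.37 and -1.78 for Nell2 and -5.68 and -2.75 for the interval. Of the 9 annotated sites, 0 were called with limma on logit values and 0 with the unmoderated F test, and each called 0 sites of the whole table, where 3480 and 1968 sites had an unadjusted p under 0.05. Between 2 and 3 of the 9 were called without each library, with 110 to 436 sites called in all. Calls in the interval depended on how sites with all reads alike were treated. With these in the fit 0 of 8 sites were called, also without each library, with limma and with the unmoderated F test (26436 and 7226 sites unadjusted). With these left out, chosen after seeing the data, 2 of 8 were called. With the replicate number as a block, 2 of the 9 annotated sites were called (215 in all) and 0 of the 8 interval sites (4430 unadjusted). Deviations of same-numbered libraries correlated at -0.05, 0.26 and -0.14, and those of differently numbered libraries between -0.29 and 0.34. These values cannot decide whether the numbers mark pairs, and the labels do not say. The main fit was unpaired. With library offsets 2 of the 9 were called (368 in all). The coverage ratio lay between 0.989 (without Sham 1, the other direction) and 1.08 without each library. The window's call held without each library, at 20 reads or more and with sites of all reads alike left out. Limma, the unmoderated F test, library offsets and the replicate block were not run on windows. Depth limits the start sites most, at 11 to 50 reads per site and library.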
